A study of Mus musculus with 9 samples.

Results

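Nonmuscle myosin II and the proteins that tie actin filaments to one another and to the cell membrane were described through 9 genes. These were the nonmuscle myosin heavy chains Myh9 and Myh10, the light chain Myl6, the alpha-actinins Actn1 and Actn4, the filamins Flna and Flnc, and the adhesion linkers Vcl (vinculin) and Tln1 (talin 1). They were chosen by name, and every probe set that the platform annotation pairs with exactly 1 of these symbols was used. That gave 21 of 36701 probe sets and 9 of 15964 genes. The RNA came from C2C12, an established line of mouse skeletal myoblasts that fuse into myotubes when serum is lowered. It was taken after 5 days at 37 °C in differentiation medium, DMEM with 2% horse serum and penicillin with streptomycin. All 9 arrays share this condition, and they are of 3 Affymetrix designs, U74Av2, U74Bv2 and U74Cv2, with 3 replicates each. No undifferentiated cells and no other line were measured, so the arrays hold levels and replicate spread, not a response to differentiation. The labels do not give separate cultures for the replicates, and their spread may be technical.

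In nonmuscle cells, myosin II pulls on actin filaments. Each motor is a pair of heavy chains, such as the products of Myh9 or Myh10, with essential light chains such as Myl6 and regulatory light chains whose phosphorylation switches the motor on. Alpha-actinins bundle the filaments of stress fibres, and filamins cross-link actin and bind membrane proteins. At focal adhesions talin binds the tails of integrins and vinculin binds talin and actin, so that pull is passed to the matrix. In muscle cells nonmuscle myosin II is known from the early assemblies that precede sarcomeres, and filamin C is the filamin enriched in striated muscle.

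The values are probe set signals in scaled units from the MAS5 software. A background limit was set on each array from control probe sets for sequences that the sample lacks. The limits of the U74Av2 arrays ran from 206 to 280, those of U74Bv2 from 430 to 963 and those of U74Cv2 from 725 to 1034. A probe set was called detected when its signal exceeded the limit on each of the 3 arrays that carry it, and a gene when 1 or more probe sets were. Replicate 1 of U74Bv2 and of U74Cv2 was washed on another fluidics station than replicates 2 and 3, and the U74Cv2 array was also of another chip lot. Replicate, station and lot cannot be told apart there. The 3' probe set of the 18S rRNA control read 37592, 62249 and 95512 on the U74Av2 arrays of replicates 1, 2 and 3. The 5' probe set of this control read 16964, 58416 and 82885. On each design, the 5' reading was lowest relative to the 3' reading on replicate 1. The part of these readings in the differences between replicates was not tested. Signals of different probe sets depend on the affinity of their probes as well as on RNA, so a percentile of signal describes a probe set's place on its array and gives no order of RNA amounts between genes.

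RNA of 8 of the 9 genes (88.9%) was detected. The exception was Flna, for which 1 probe set was measured. Over all genes the detected share was 62.0%. The members carried more probe sets than most genes, and a gene with more probe sets has more chances to be detected. The share was 48.0% for genes with 1 probe set, 70.7% with 2, 81.5% with 3 and 89.0% with 4. Averaged at the members' own numbers of probe sets it was 71.3%, against which the 88.9% of 9 genes stands as a count with no test. In RNA of a whole culture, fewer cells that express a gene and less of its RNA per cell cannot be told apart.

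By probe set, 15 of 21 (71.4%) were detected. On U74Av2 these were 11 of 14 (78.6%), against 58.2% of all probe sets of that design. On U74Bv2 they were 3 of 5, against 43.8%, and on U74Cv2 1 of 2, against 31.6%. A limma test of log2 signal over the limit was two-sided, with Benjamini-Hochberg adjustment over all probe sets of a design. With calls restricted to ratios above the limit, the test called the same 15. Over all probe sets it called 55.8% on U74Av2, 38.0% on U74Bv2 and 25.7% on U74Cv2. Of the member probe sets, 11 of 21 lay above the 90th percentile of signal on all 3 arrays of their design, against 8.52% of all probe sets. The median percentile of a gene's best probe set was 98.4 over the members and 64.4 over all genes. This too rises with the number of probe sets, and over all genes it was 49.8 with 1 probe set, 70.2 with 2, 77.8 with 3 and 83.6 with 4. By gene, Flna at 14.9 and Myh10 at 69.7 lay below the value for their number of probe sets, and the other 7 members lay between 96.2 and 99.6, above theirs.

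**Figure D1:**
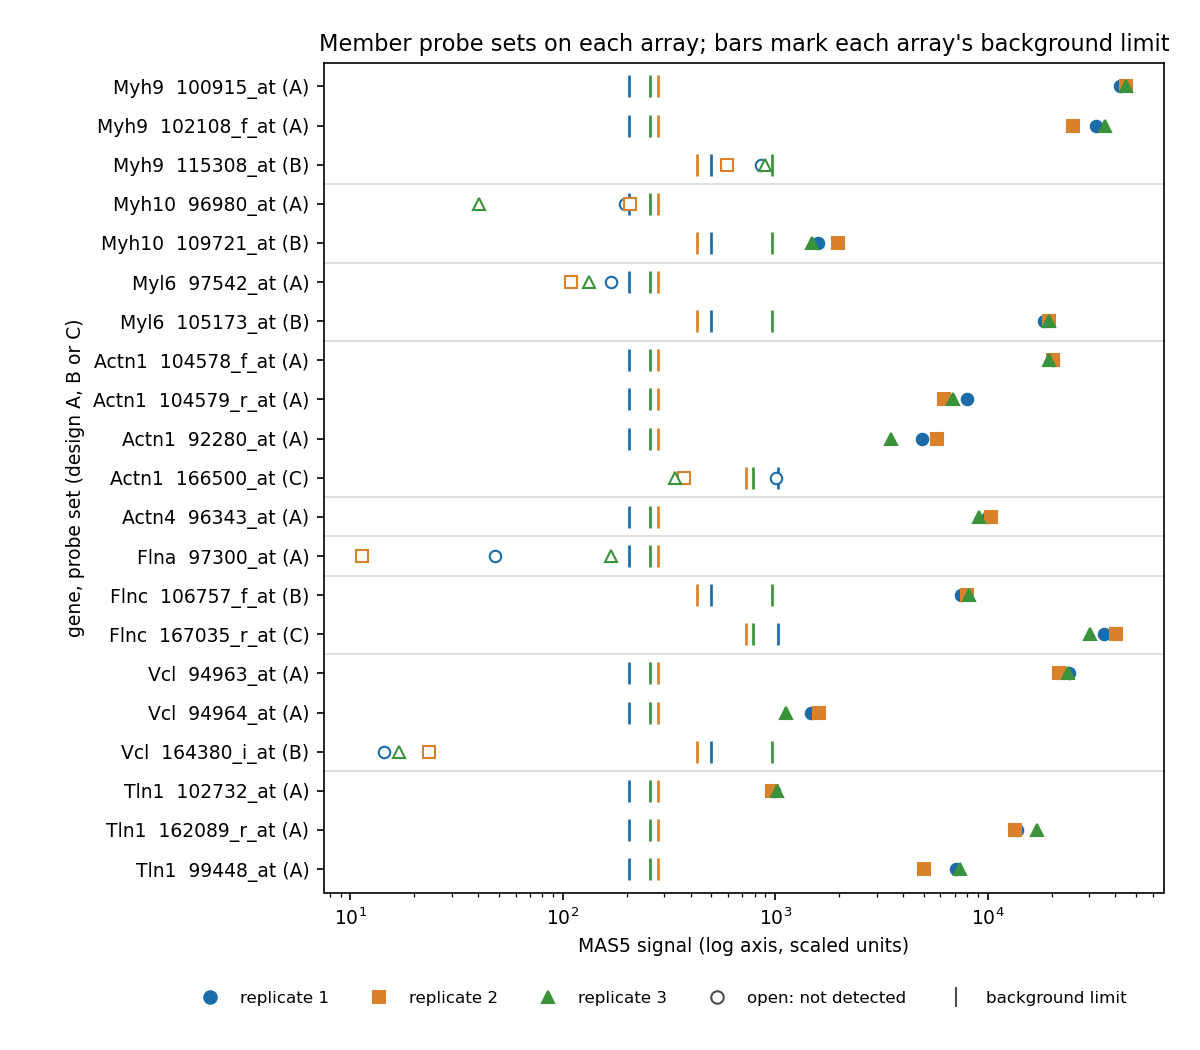
MAS5 signal on a log axis for the 21 member probe sets, with 1 point for each of 3 replicates and a vertical bar for the background limit of each array. The 15 detected probe sets, drawn filled, lie to the right of all 3 limits, and the 6 open ones do not. Designs are written A, B and C for U74Av2, U74Bv2 and U74Cv2.

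The motor was represented by both heavy chains and the light chain. Myh9, the heavy chain of nonmuscle myosin IIA, gave signals of 41839, 44755 and 44722 on replicates 1, 2 and 3 of probe set 100915_at (U74Av2). The 3 arrays lay within 1.07-fold of one another and far above their limits. The mean was 43772 ± 1674 (SD, n = 3), 179 ± 22.2 times the limit, and the limma log2 ratio to the limit was 7.48 (SE 0.23, adjusted p = 5.7e-07). A second Myh9 probe set, 102108_f_at, read 32257, 25366 and 35523, with replicate 2 the low array. Its mean was 129 ± 34.2 times the limit (SD, n = 3). The third, 115308_at on U74Bv2, read 861, 593 and 894. It exceeded the limit on 2 of 3 arrays, at 1.73, 1.38 and 0.93 times, and was not detected. The limma ratio was 0.38 on the log2 scale (SE 0.48, adjusted p = 0.489), and without replicate 3, whose limit was the highest of that design, it would count as detected.

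Myh10, the heavy chain of nonmuscle myosin IIB, was detected by 1 of 2 probe sets. Probe set 109721_at (U74Bv2) read 1595, 1966 and 1492, a mean of 1685 ± 249 (SD, n = 3). All 3 arrays lay above the limit, by 3.20, 4.57 and 1.55 times, with signals that spanned 1.32-fold. The limma log2 ratio was 1.50 (SE 0.48, adjusted p = 0.00353). On U74Bv2 the limma fit pooled the spread over all probe sets completely, so this SE is the same for every probe set of that design. The p-values of this design treat the pooled spread as known exactly, although the limits of only 3 arrays enter it. The other probe set, 96980_at (U74Av2), read 195, 208 and 40.4 and lay below the limit on all 3 arrays.

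Myl6, the essential light chain shared by nonmuscle and smooth muscle myosin II, gave the steadiest signal of the 15 detected member probe sets. Probe set 105173_at (U74Bv2) read 18503, 19397 and 19361, a mean of 19087 ± 506 (SD, n = 3) and 34.1 ± 12.8 times the limit. Its signal had an SD on the log2 scale of 0.039, lower than in all but 3.68% of detected probe sets of the design. The wider SD of the multiple includes the spread of the array limits, 498, 430 and 963. The U74Av2 probe set of the same gene, 97542_at, read 168, 110 and 133. It lay below the limit on every array, with a limma log2 ratio of -0.86 (SE 0.27, adjusted p = 0.0187). The detection of this gene thus rested on 1 of its 2 probe sets.

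Actn1 and Actn4 encode the alpha-actinins of nonmuscle cells. Of 4 Actn1 probe sets, 3 were detected, all on U74Av2. The signals of 104578_f_at were 20393, 20365 and 19381, a span of 1.05-fold with replicate 3 the lowest. The mean was 82.4 ± 14.5 times the limit (SD, n = 3). The limma log2 ratio was 6.35 (SE 0.23, adjusted p = 6.86e-07). Probe set 104579_r_at read 7990, 6250 and 6839, 29.3 ± 8.57 times the limit. Probe set 92280_at read 4923, 5804 and 3506, 19.4 ± 5.24 times the limit, with replicate 3 the low array. Its highest array exceeded its lowest by 1.66-fold, the widest gap among the detected member probe sets. The U74Cv2 probe set 166500_at read 1004, 372 and 338 and was below the limit on all 3 arrays. Actn4 was measured by 1 probe set, 96343_at (U74Av2), at 10024, 10336 and 9135. The mean of 9832 ± 623 (SD, n = 3) was 40.4 ± 7.23 times the limit, with a limma log2 ratio of 5.32 (SE 0.23, adjusted p = 1.12e-06).

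The filamins differed in detection. Flna, the widely expressed filamin, was measured by 1 probe set, 97300_at (U74Av2), at 47.8, 11.4 and 169. All 3 values were below the limit, at 0.31 ± 0.32 times (SD, n = 3), and they spanned 14.9-fold. The limma log2 ratio was -2.44 (SE 0.65, adjusted p = 0.00862). With 1 probe set, a transcript that was rare and a probe set that did not report it cannot be told apart. For Flnc, the striated muscle filamin, both probe sets were detected. Probe set 167035_r_at (U74Cv2) read 35474, 40288 and 30460, a mean of 35407 ± 4914 (SD, n = 3) and 42.9 ± 11.2 times the limit. The limma log2 ratio was 5.39 (SE 0.31, adjusted p = 0.000321). Probe set 106757_f_at (U74Bv2) read 7461, 8021 and 8154, 14.0 ± 5.16 times the limit, with the 3 arrays close together. Both Flnc probe sets carry suffixes of the manufacturer, f for a sequence family and r for relaxed probe selection rules, and their cross-hybridisation was not tested. With probe sets free of such suffixes alone, 7 member genes would count as detected and Flnc would not. The share over all genes would then be 60.1%.

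Vinculin and talin 1, the linkers between integrins and actin, were both detected. Vcl probe set 94963_at (U74Av2) read 24117, 21792 and 23982, a span of 1.11-fold with replicate 2 the lowest. The mean of 23297 ± 1306 (SD, n = 3) was 96.1 ± 19.9 times the limit, with a limma log2 ratio of 6.57 (SE 0.24, adjusted p = 6.79e-07). Its neighbour 94964_at read 1479, 1609 and 1122, 5.77 ± 1.41 times the limit. The third Vcl probe set, 164380_i_at (U74Bv2), read 14.3, 23.3 and 17.0, at 0.034 ± 0.019 times the limit. Its suffix i marks a probe set with an incomplete set of probes.

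All 3 Tln1 probe sets were on U74Av2 and all were detected. Probe set 162089_r_at read 13730, 13518 and 17173, with replicate 3 the high array, and lay at 60.6 ± 10.8 times the limit (SD, n = 3). Probe set 99448_at read 7081, 5031 and 7412, 27.1 ± 8.38 times the limit, with replicate 2 the low array. Probe set 102732_at read 987, 967 and 1024, 4.08 ± 0.68 times the limit. These last signals were nearly flat, and the limma log2 ratio was 2.02 (SE 0.23, adjusted p = 8.76e-05).

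Among the 7 member genes with several probe sets, 5 had both detected and undetected ones: Myh9, Myh10, Myl6, Actn1 and Vcl. For Flnc and Tln1 all were detected. Over all genes with several probe sets the mixed share was 55.4%. Member probe sets with a suffix were detected in 6 of 7 cases and plain ones in 9 of 14. Over all probe sets these shares were 41.0% and 45.9%.

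Over the 3 designs together, the detected member probe sets varied between replicates about as much as other detected probe sets. Their median SD of log2 signal was 0.18, with a range from 0.039 (Myl6) to 0.37 (Actn1 92280_at), and the median over all detected probe sets was also 0.18. Of the 15, 8 lay below the median of their design. The designs differed. On U74Av2 the median was 0.18 over 11 members, against 0.15 over all detected probe sets, and 5 of the 11 lay below it. On U74Bv2 it was 0.068 over 3 members, against 0.18. The 1 member of U74Cv2 lay at 0.20, against 0.24. The median over all 15 rests on few arrays, and it was 0.091 without replicate 2 and 0.086 without replicate 3. Above the 90th percentile of signal the median SD was 0.10, 0.12 and 0.17 on U74Av2, U74Bv2 and U74Cv2, lower than the 0.15, 0.18 and 0.24 of all detected probe sets. Of the 11 member probe sets that bright, 6 lay below these medians. Their own median SD was 0.14 over 8 on U74Av2 and 0.053 over 2 on U74Bv2, and the 1 on U74Cv2 lay at 0.20.

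**Figure D2:**
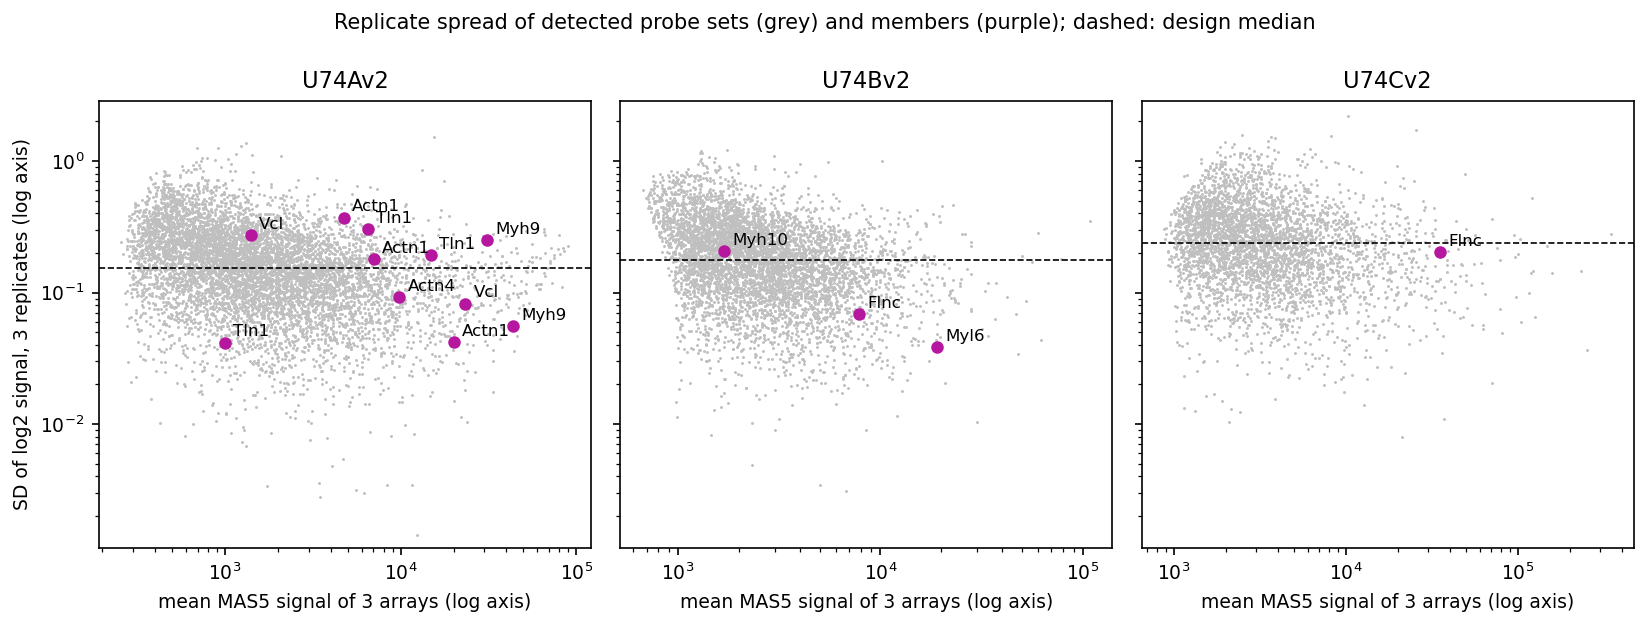
SD of log2 signal over 3 replicates (log axis) against mean signal (log axis) for all detected probe sets, in grey, and the 15 detected member probe sets, in purple with their gene. Dashed lines mark the median SD of each design, and 8 of the 15 members lie below them.

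No replicate was low for all members. Of the 15 detected probe sets, 3 were lowest on replicate 1, 6 on replicate 2 and 6 on replicate 3. Probe sets of one gene did not always share their low array. On U74Av2, Myh9 102108_f_at was lowest on replicate 2 and 100915_at on replicate 1, and Vcl 94963_at was lowest on replicate 2 and 94964_at on replicate 3. The 3 Tln1 probe sets all had replicate 2 as their lowest array. Over the 11 detected members of U74Av2, the median deviation from a probe set's own mean was 0.05, -0.04 and 0.03 on the log2 scale in replicates 1, 2 and 3. On U74Bv2, all 3 detected members were below their own mean on replicate 1, the array washed on another station, with a median deviation of -0.07. The corresponding medians were 0.03 and 0.02 on replicates 2 and 3. The 1 detected member of U74Cv2, Flnc 167035_r_at, deviated by 0.01, 0.20 and -0.21. Over all detected probe sets, the largest median deviation on any array was 0.01.

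**Figure D3:**
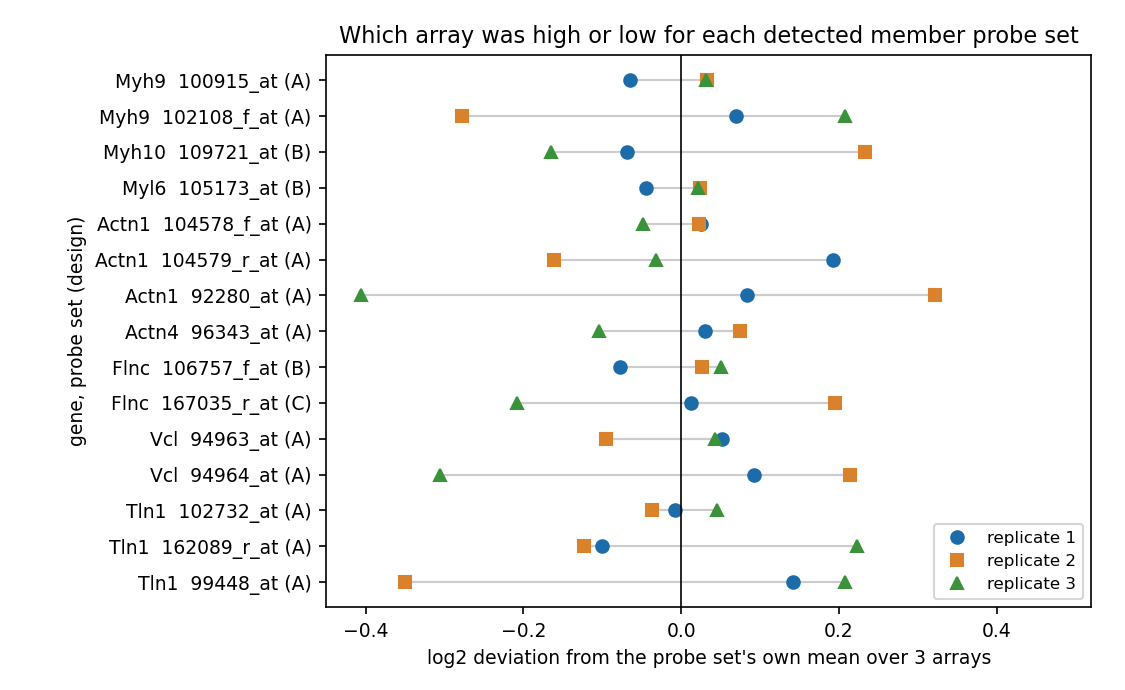
Deviation of each replicate from the probe set's own mean, in log2 units, for the 15 detected member probe sets. The points of Myl6 and of Myh9 100915_at lie close to 0, while Actn1 92280_at has replicate 3 and Tln1 99448_at replicate 2 well below it.

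The sequence in front of the gene starts was read from RefSeq promoters of the mouse assembly GRCm38.p6, from 250 bases before to 50 bases after each start. All 9 members matched, with 11 promoters. A CArG box, the site bound by serum response factor, was found in Vcl and Myl6, 2 of 9 members, against 1.81% of all 27025 genes. Both windows are shown because this factor controls many actin and adhesion genes. The box is in capitals, and it lies 50 to 41 bases before 1 of the 2 Myl6 starts (chr10:128493025-128493084, minus strand) and 227 to 218 bases before the Vcl start (chr14:20929148-20929205, plus strand).
Myl6: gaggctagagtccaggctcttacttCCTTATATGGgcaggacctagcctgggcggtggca
Vcl: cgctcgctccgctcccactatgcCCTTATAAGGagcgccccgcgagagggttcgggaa
Both strands were searched for 5 other motifs. The GC box GGGCGG stood in 7 of 9 members, all but Myh10 and Tln1, against 38.2% of all genes. The MCAT motif CATTCC, bound by TEAD factors, stood in 5, namely Myh10, Actn4, Flna, Flnc and Vcl, against 16.6%. The E box CAGCTG stood in Myh10 alone, against 18.3%, and the TATA box motif TATAAA in Myh9 alone, against 15.7%. The MEF2 site was found in 0 members, against 3.70% of all genes. Flna, which was not detected, shared the GC box and CATTCC with detected members. A match is a run of letters in a window and shows no binding.

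Paralogs of the members were detected in 6 of 7 measured cases, against 62.0% of all genes. Their median percentile was 80.0, against 64.4 over all genes. Both background values rise with the number of probe sets per gene, for which this and the following lists were not adjusted. Actn3, the sarcomeric alpha-actinin of fast fibres, was detected by both of its probe sets. Probe set 100879_at read 9622, 10888 and 7907, 38.8 ± 7.96 times the limit (SD, n = 3). Actn2, the other sarcomeric alpha-actinin, was not detected by its 1 probe set, at 109, 106 and 120, or 0.46 ± 0.07 times the limit. The alpha-actinin set thus held detected RNA of 2 nonmuscle genes and 1 of 2 sarcomeric genes. For Actn2, rare RNA and a probe set that did not report it cannot be told apart. Myh14, the third nonmuscle heavy chain, lay at 4.76 ± 1.08 times the limit with 1 of 2 probe sets detected. The smooth muscle heavy chain Myh11 lay at 3.29 ± 1.41 times with 1 of 3. Myl6b, a light chain paralog of Myl6, lay at 9.90 ± 2.60 times with 1 of 2 detected. Tln2 lay at 9.48 ± 2.64 times the limit with 1 of 4 probe sets detected, and Ctnna1, the vinculin relative of cell-cell junctions, at 55.0 ± 8.21 times with 1 of 3.

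The genes that switch nonmuscle myosin on and off were detected in 16 of 18 measured cases, against 62.0% of all genes. Over all genes the median percentile was 64.4, and over this list it was 86.5. The 3 with the highest percentiles were Myl12a, a regulatory light chain, at 55.3 ± 10.6 times the limit, Rhob, a small GTPase, at 105 ± 21.9 times, and Rnd3, a small GTPase that inhibits the kinase ROCK1, at 21.4 ± 6.78 times (SD, n = 3 each). The Myl12a value is from 171217_f_at, whose suffix f marks a sequence family, and its cross-hybridisation was not tested. Mylk3, a myosin light chain kinase of heart muscle, lay at 0.98 ± 0.51 times the limit. Ppp1r12b, a targeting subunit of myosin phosphatase, lay at 1.66 ± 0.74 times but above it on only 2 of 3 arrays.

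Of the integrin adhesion genes, 29 of 30 measured were detected, against 62.0% of all genes. Their median percentile was 91.0, against 64.4 over all genes. Itgb1, the beta 1 integrin to which talin binds, lay at 146 ± 22.4 times the limit. This value is from 100123_f_at, also a sequence family probe set, and its cross-hybridisation was not tested. Tns1, an adhesion protein that binds actin, lay at 45.6 ± 19.6 times, and Lpp, a LIM protein of the zyxin family, at 44.4 ± 8.97 times with 5 of 5 probe sets detected (SD, n = 3 each). Zyx itself was not detected by its 1 probe set, which read 104, 83.0 and 94.9, or 0.39 ± 0.11 times the limit. As for Flna, 1 probe set does not separate rare RNA from a probe set that did not report it.

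Actin and its stress fibre partners were detected in 19 of 20 cases, against 62.0% of all genes. Over all genes the median percentile was 64.4, and over this list it was 97.2. Those with the highest percentiles were Actg1, a cytoplasmic actin, at 294 ± 57.2 times the limit, Acta2, the smooth muscle actin, at 226 ± 32.7 times, and Cald1, the actin binder caldesmon, at 84.6 ± 32.9 times. Lcp1, the plastin of blood cells, was not detected, at 0.51 ± 0.33 times. All 9 genes of a serum response list were detected, against 62.0% of all genes. Their median percentile was 94.6, against 64.4 over all genes. Tagln lay at 139 ± 21.2 times the limit, Ankrd1 at 71.0 ± 26.0 times and Ccn2 at 38.6 ± 4.56 times (SD, n = 3 each).

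Of 11 measured genes on a list drawn up as muscle partners of filamin C, 6 were detected (54.5%), against 62.0% of all genes. Whether each listed gene, Krt18 among them, is such a partner was not tested. Those with the highest percentiles were the small heat shock protein Hspb8 at 31.4 ± 4.72 times the limit, the Z-disc protein Ldb3 at 9.48 ± 5.60 times and Hspb7 at 6.37 ± 2.05 times (SD, n = 3 each). The other 5 did not exceed the limit on all 3 arrays. Xirp2 lay at 1.02 times the limit, Myot at 0.66, Myoz1 at 1.63, Sgcd at 0.63 and Krt18 at 0.72 times. Relatives of 2 of these genes were among the detected partners, Xirp1 at 9.74 times the limit and Myoz2 at 6.48 times, and both were named after their values were seen.

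**Figure D4:**
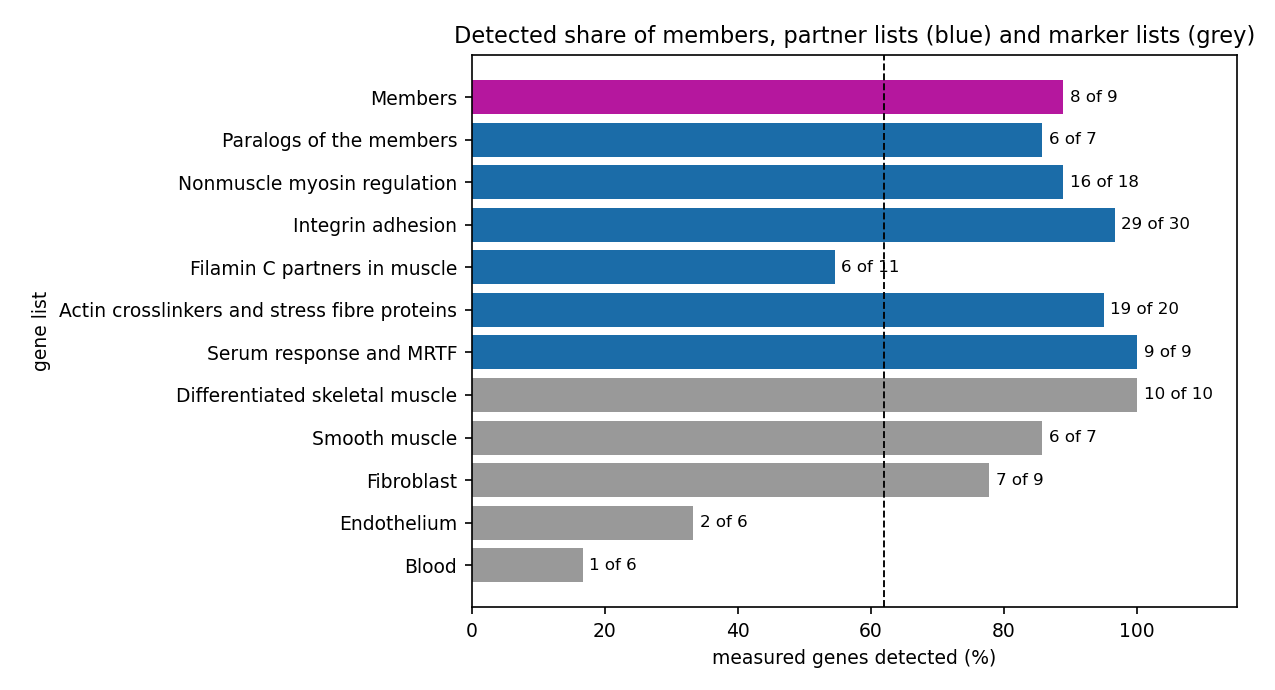
Share of measured genes detected (%) for the members, the 6 partner lists and the 5 marker lists, with detected and measured genes printed beside each bar. The dashed line marks the 62.0% of all genes, and the filamin C partner list, the endothelial and the blood markers lie below it.

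The labelled cell type was checked by marker lists. All 10 markers of differentiated skeletal muscle were detected, with a median percentile of 95.7. Over all genes the detected share was 62.0% and the median percentile 64.4. Smooth muscle markers were detected in 6 of 7 cases, all but Myocd, and fibroblast markers in 7 of 9, all but Thy1 and Fap. The detected ones include actin and collagen genes, and also Myh11, Smtn, Lmod1, Dcn, Pdgfra and Pdgfrb. What their detection says about the cells present was not tested. Of the 6 endothelial markers, 2 were detected, Pecam1 at 1.39 and Kdr at 1.31 times the limit. The others, Cdh5, Tek, Tie1 and Vwf, lay between 0.13 and 0.31 times. Of the 6 measured blood markers, Cd68 was detected at 1.44 times. Hba-a1, a globin gene, lay at 1.73 ± 0.92 times (SD, n = 3) but above the limit on only 2 of 3 arrays. Adgre1 lay at 0.88 times, Pf4 at 0.85, Itgam at 0.18 and Ptprc, the common leukocyte marker, at 0.13 times. The marker genes were named after their values were seen.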

How the data were processed

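The authors deposited linear intensity values per probe set. MAS5 produced them, per the submitters' processing notes, with its version, its settings and a genome build not given in the sources used here. Each array had been scaled by itself to a 2% trimmed mean near 1500.

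The background limit was the 95th percentile of control probe sets for absent sequences on each array. Control families whose median signal exceeded the median of their design were left out first. That left 20, 20 and 17 control probe sets on U74Av2, U74Bv2 and U74Cv2. Multiples of the limit and SDs of log2 signal were computed per array or over 3 replicates. Each design was treated by itself. The ratio log2(signal / limit) was tested against 0 with limma 3.58.1 in R 4.3.3 over all probe sets of a design except controls. The test was two-sided, with a threshold of 0.05 after Benjamini-Hochberg adjustment. A call above the limit also required a ratio above 0. The limit of an array is shared by all its probe sets, and differences between the 3 limits of a design enter the multiples, SEs and p-values. An error common to the 3 limits is not allowed for in the p-values. They measure only the spread between 3 arrays and are no comparison between conditions. The script was tested on simulated data. Precision is limited by the number of arrays. A list gene's values are those of its detected probe set with the highest percentile of signal, or of its highest one where none was detected.

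The members, gene lists and motifs were chosen with earlier results of these data known. All members and paralogs are named. From each other partner list, undetected genes are named where there are 5 or fewer, with the 3 detected genes of highest percentile, and genes named outside this rule are marked in the text. Alternatives were other limits, a rule of 2 of 3 arrays, the limma call, plain probe sets only, quantile normalization and leaving out each replicate. Counts, spreads and motif searches were made in Python 3.11.15 (pandas 2.3.3, numpy 2.4.6), and plots in matplotlib 3.10.9.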

Additional observations from a re-analysis of the deposited data

How the results depend on the processing

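The count of 15 detected member probe sets held with the highest control probe set or the array median as the limit, with the limma call, and without replicate 1 or replicate 2. It was 16 with 2 of 3 arrays or without replicate 3, since 115308_at of Myh9 was added. The count of 8 detected genes held in all of these and was 7 with plain probe sets only. Over all probe sets the detected share was 44.7%, and it ran from 40.1% with the limma call to 54% with 2 of 3 arrays. Over all genes it was 62.0%, and it ran from 57.8% with the limma call to 69.9% with 2 of 3 arrays. With plain probe sets only it was 60.1% of all genes. The median multiple of the limit over the detected member probe sets was 34.1, and 33.4 after quantile normalization. It ranged from 32.6 to 41.1 when 1 replicate was left out. The median SD of log2 signal over the detected members was 0.18, and 0.17 after quantile normalization. It ranged from 0.086 to 0.13 when 1 replicate was left out, where an SD rests on 2 arrays. Of the partner and marker lists, the endothelial count of 2 was 1 with the highest control probe set as the limit. With the array median as the limit or the limma call, the endothelial and blood counts were 0. The blood count of 1 became 2 with 2 of 3 arrays or without replicate 2. With 3 arrays per design, a signal near the limit, as for Myh9 115308_at, could not be placed on either side of it. No paired analysis was possible because the designs carry different probe sets and no groups were compared.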
